A study of Mus musculus with 71 samples.

Results

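Sox1, Sox2, Pax6, Neurog1, Neurog2, Tubb3, Elavl3, Elavl4 and Dcx mark successive steps from neural progenitor to young neuron, and their levels were followed across an allelic series of the miR-17-92 microRNA cluster in the mouse embryo. The 9 genes were taken by name. Of these, 8 had a row in the deposited table of 37620 genes and are described below, while Sox1 was not analysed here. The table held 71 RNA-seq libraries from C57BL/6 embryos at E9.5, with 20 to 22 somites. Each embryo was divided into the tail bud, the heart and the remaining embryo, here called the rest of the embryo. The Full-KO embryos carried the knockout of the whole cluster. The Delta_17 embryos lacked miR-17 and miR-20a, Delta_18 lacked miR-18a, Delta_19 lacked miR-19a and miR-19b-1, and Delta_92 lacked miR-92a-1. The Delta_17_18 embryos lacked miR-17, miR-20a and miR-18a, and the Delta_17_18_92 embryos lacked these and miR-92a-1, which left only the miR-19 family of the cluster. Wild-type embryos had the intact locus. Each of the 24 combinations of genotype and tissue had 3 libraries, except Delta_17_18_92 rest of embryo with 2. The labels call these biological triplicates, but the zygosity of the embryos and the number of embryos in a library are not given in the sources used here.

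At this stage the neural tube is made mostly of dividing neuroepithelial progenitors, and the first neurons appear in the hindbrain, spinal cord and cranial ganglia. Sox1 and Sox2 are SOXB1 transcription factors that keep neural cells in the progenitor state, and Sox2 is also active in the neuromesodermal progenitors of the tail bud, which give rise to both spinal cord and paraxial mesoderm. Pax6 patterns the neural tube, Neurog1 and Neurog2 are proneural factors that commit progenitors to a neuronal fate, and Tubb3, Elavl3, Elavl4 and Dcx encode proteins of young neurons. A microRNA represses messenger RNAs through its seed, the bases near its 5′ end that pair with matching sites, mostly in 3′ untranslated regions. The cluster therefore works as 4 seed families.

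The 6 mature microRNAs are shown because each mutant genotype removes a defined set of them. Sequences are from RefSeq on GRCm38.p6, where they lie on the plus strand of chromosome 14 from miR-17 at chr14:115043684-115043706 to miR-92a-1 at chr14:115044476-115044496, and are written 5′ to 3′ with the seed (bases 2 to 8) in capitals. The miR-17 family comprises miR-17 and miR-20a, the miR-19 family comprises miR-19a and miR-19b-1, and miR-18a and miR-92a-1 each have their own seed.
miR-17: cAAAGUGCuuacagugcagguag
miR-20a: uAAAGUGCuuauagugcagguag
miR-18a: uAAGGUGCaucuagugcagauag
miR-19a: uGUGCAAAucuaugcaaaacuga
miR-19b-1: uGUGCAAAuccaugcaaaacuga
miR-92a-1: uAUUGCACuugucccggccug

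The longest annotated 3′ untranslated region of each gene was searched on the transcribed strand for the 7-base matches to the 4 seeds, which are GCACTTT for miR-17, GCACCTT for miR-18, TTTGCAC for miR-19 and GTGCAAT for miR-92. Of the 9 genes, 4 held 1 match each, and these are printed below, 5′ to 3′, with the match in capitals, because they are the places where the listed microRNAs could pair. Neurog1 had a miR-17 match at bases 256 to 262 of a region of 720 bases on chromosome 13. Neurog2 had one at bases 574 to 580 of 1111 on chromosome 3, and Dcx one at bases 5206 to 5212 of 7709 on chromosome X. Elavl4, on chromosome 4, had an 8-base miR-19 match at bases 2091 to 2098 of 2610.
Neurog1: tcgtttttgttGCACTTTctgaacttcaca
Neurog2: ctctctgatgtGCACTTTgtttttttccca
Dcx: ttgaaagtaagGCACTTTcctacttggatt
Elavl4: caggactgttgTTTGCACAttgaagaggca
No such letters were found in these regions of Sox1, Sox2, Pax6, Tubb3 or Elavl3. Of 19819 genes with an annotated region, 12.5% held the miR-17 match, 8.72% the miR-18 match, 12.0% the miR-19 match and 7.03% the miR-92 match, so single matches are common. A match is a description of sequence and does not show pairing.

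Total counts ran from 13532012 to 27477273 per library. Levels are given as CPM, the count of a gene scaled to a common library size after adjustment by the trimmed mean of M-values (TMM), and differences as log2 fold changes ± standard error (SE) from edgeR. Dissections matched their labels: Brachyury (T), a tail bud marker, had 207 to 300 CPM in tail buds, 3.60 to 6.60 CPM in the rest of the embryo and 0.544 to 5.99 CPM in hearts, and the cardiac myosin Myh6 had 7132 to 9165 CPM in hearts, with at most 6.84 CPM in tail buds and 165 CPM in the rest of the embryo. The deletions themselves could not be checked from the 6 hairpin genes of the cluster, which had 0 counts in every library. The host transcript Mir17hg was present in every genotype, at 122 to 419 CPM in mutant tail buds and 105 to 137 CPM in Wild-type tail buds. Its tail bud means differed by genotype, at 122 CPM in Wild-type, 131 in Delta_18, 161 in Delta_92 and 171 in Delta_19. They were 233 CPM in Delta_17, 249 in Delta_17_18, 345 in Full-KO and 404 in Delta_17_18_92. The cause of this order was not tested. Wild-type tail bud replicate 3 stood apart from its group, with 5.08 CPM of Myh6 against 0.493 and 1.13 CPM in replicates 1 and 2, and it was also the highest of the 3 for Pax6, Neurog1, Neurog2, Tubb3, Elavl4 and Dcx. Where a call named here changed without it, the value without it is given.

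In Wild-type embryos all 8 genes were higher in the rest of the embryo, which holds the brain and most of the spinal cord, than in the heart, and all 8 were lower in the tail bud than there. Such contrasts are frequent here: 68.1% of 16922 tested genes passed the test (adjusted p under 0.05, edgeR quasi-likelihood test with Benjamini-Hochberg adjustment) between rest of embryo and heart, 68.6% between tail bud and heart, and 29.8% between tail bud and rest of embryo. Between tail bud and heart, 5 of the 8 passed.

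The progenitor factor Sox2 had 41.1, 44.1 and 42.9 CPM in Wild-type tail buds, 94.4, 109 and 100 CPM in the rest of the embryo, and 1.19, 1.16 and 2.59 CPM in hearts. The 3 tissues did not overlap, and the tail bud level was lower than that of the rest of the embryo by the smallest margin of the 8 genes, at −1.24 ± 0.13 (edgeR adjusted p = 1e-05). Pax6 had 4.02, 6.80 and 9.28 CPM in tail buds, 62.9, 71.9 and 63.7 CPM in the rest of the embryo, and 1.52, 1.55 and 2.12 CPM in hearts. Here too the tissues did not overlap, and the tail bud difference from the rest of the embryo was −3.34 ± 0.21 (edgeR adjusted p = 3.96e-07).

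The proneural genes separated in the tail bud. Neurog1 had 0.0411, 0.117 and 0.564 CPM in Wild-type tail buds, 5.06, 7.20 and 8.61 CPM in the rest of the embryo and 0.108, 0.166 and 0.235 CPM in hearts. Its tail bud libraries overlapped the hearts, and the difference from heart was 0.25 ± 0.86 (edgeR adjusted p = 0.811). Neurog2 had 1.64, 1.63 and 2.70 CPM in tail buds, 10.4, 13.1 and 11.9 CPM in the rest of the embryo and 0.108, 0 and 0.0588 CPM in hearts, without overlap. Against the rest of the embryo, tail buds differed by −5.08 ± 0.44 for Neurog1 and −2.61 ± 0.20 for Neurog2 (edgeR adjusted p = 1.72e-06 and 6.4e-07).

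Among the neuronal genes, the tubulin gene Tubb3 had 8.13, 7.62 and 9.46 CPM in Wild-type tail buds, 34.0, 41.2 and 40.9 CPM in the rest of the embryo and 1.90, 4.48 and 5.06 CPM in hearts. The RNA-binding protein gene Elavl4 was unlike the rest, with 4.23, 3.15 and 4.83 CPM in tail buds, 15.8, 19.1 and 19.3 CPM in the rest of the embryo and 8.08, 7.58 and 7.00 CPM in hearts. It was lower in the tail bud than in the heart, by −0.91 ± 0.16 (edgeR adjusted p = 0.00022), the only gene of the 8 with a call in that direction. Its relative Elavl3 had 1.03, 1.28 and 0.940 CPM in tail buds and 1.08, 0.885 and 0.941 CPM in hearts, which overlapped, against 10.9, 16.1 and 14.3 CPM in the rest of the embryo. Dcx, which encodes the microtubule-binding doublecortin, had 0.246, 0.544 and 0.815 CPM in tail buds, 7.25, 13.0 and 11.9 CPM in the rest of the embryo and 0.867, 0.830 and 1.65 CPM in hearts. All 3 tail buds lay below the hearts, and the difference of −1.12 ± 0.48 did not pass the test (edgeR adjusted p = 0.0563). Replicate numbers paired the tissues, and with the number as a block this difference passed (edgeR adjusted p = 0.0148). It also passed without Wild-type tail bud replicate 3, at −1.45 (edgeR adjusted p = 0.0438), and without Wild-type rest of embryo replicate 1 (edgeR adjusted p = 0.0284). In whole-tissue RNA, fewer cells of a type and less RNA per cell cannot be told apart.

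**Figure D1:**
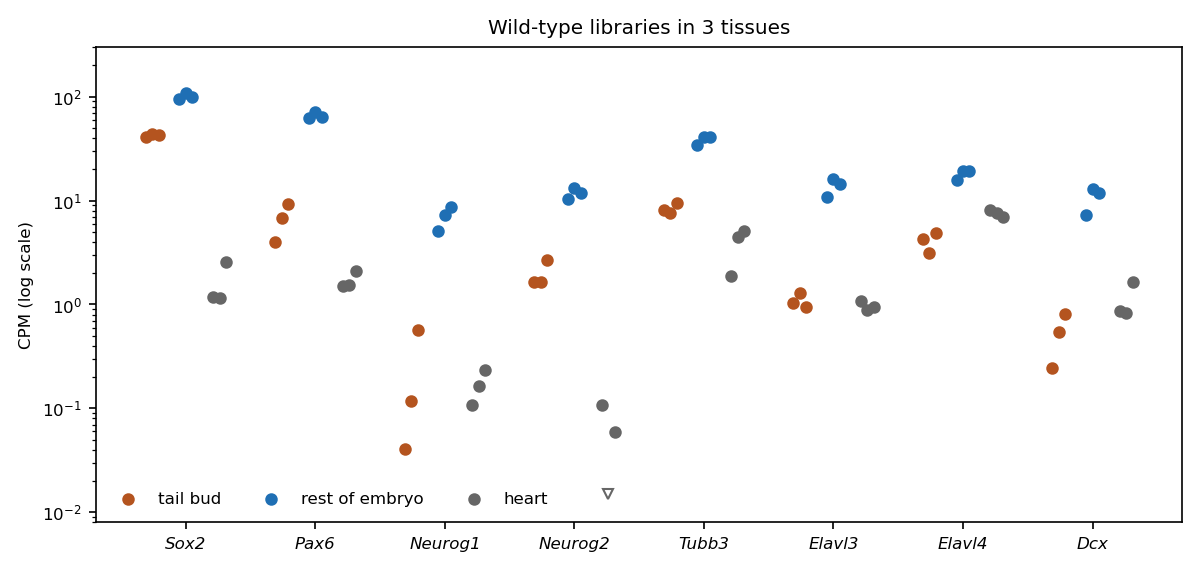
Levels of the 8 genes in Wild-type tail bud, rest of embryo and heart (CPM, log axis, 3 libraries each, 1 point per library, with an open triangle for a count of 0). The rest of the embryo is highest for every gene, and Elavl4 is the only one whose hearts, at 7.00 to 8.08 CPM, lie wholly above its tail buds by a called difference.

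Set per kilobase of annotated exon, Sox2 was the most abundant of the 8 in the Wild-type tail bud, at 20.8 ± 0.726 CPM per kb (SD, n = 3), followed by Tubb3 at 4.50 ± 0.511. Neurog2 at 0.894 ± 0.274, Elavl4 at 0.755 ± 0.158 and Pax6 at 0.573 ± 0.225 followed, and their libraries overlapped. Elavl3 at 0.157 ± 0.0258 and Neurog1 at 0.143 ± 0.168 also overlapped. Dcx had the lowest mean, at 0.0423 ± 0.0225, and its libraries overlapped those of Neurog1. In the rest of the embryo Sox2 at 49.2 ± 3.53 and Tubb3 at 20.7 ± 2.17 again led. Pax6 and Neurog2, at 5.66 and 5.30 CPM per kb, overlapped. Neurog1 at 4.13 overlapped both Neurog2 and Elavl4, the latter at 3.35, while Elavl3 at 2.00 and Dcx at 0.847 ± 0.240 were lowest. In the heart Tubb3 at 2.04 ± 0.901 CPM per kb came first and overlapped the next gene, Elavl4, and Neurog2 came last at 0.0250 ± 0.0244. The order rests on the summed exons of all transcripts. With the longest transcript instead, Pax6 was the third and Neurog2 the fifth in the tail bud. In the rest of the embryo Pax6 then had 14.9 CPM per kb, against 5.30 for Neurog2, and Elavl4 moved above Neurog1.

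In the tail bud, 7 of the 8 genes passed the filter on low counts, and Neurog1 did not. Of the resulting 49 tests of a mutant genotype against Wild-type, 3 passed, each an increase: Sox2 in Delta_19, Tubb3 in Full-KO and Dcx in Delta_17_18. The other 46 log2 differences ran from −0.26 to 1.30. In Full-KO, 1 of 7 genes passed, where 10.4% of all 17009 tested genes did. In Delta_19, 1 of 7 passed against 1.03% of all genes, and in Delta_17_18, 1 of 7 against 8.31%. None of the 7 passed in Delta_17 (1.77% of all genes), Delta_18 (0.129%), Delta_92 (0.359%) or Delta_17_18_92 (5.57%). At an unadjusted p under 0.05 there were 6 of the 49. The median log2 difference of the 7 genes was 0.23 in Full-KO, 0.25 in Delta_17, 0.12 in Delta_18, 0.33 in Delta_19, 0.09 in Delta_92, 0.02 in Delta_17_18 and 0.09 in Delta_17_18_92, where the medians of all genes ran from −0.01 to 0.01. All 7 comparisons share the same Wild-type tail buds.

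Sox2 had 54.1, 54.3 and 55.0 CPM in Delta_19 tail buds, against 41.1, 44.1 and 42.9 CPM in Wild-type tail buds. All 3 Delta_19 libraries lay above all 3 Wild-type libraries, by 0.34 ± 0.08 (edgeR adjusted p = 0.0344). The call ended without any 1 of the 3 Delta_19 libraries (edgeR adjusted p = 0.101, 0.0951 and 0.106 without replicates 1, 2 and 3), without Wild-type replicate 1 (0.32, edgeR adjusted p = 0.0520) and without Wild-type replicate 3 (0.36, edgeR adjusted p = 0.0735), while the difference stayed between 0.32 and 0.37. With the spread estimated from these 2 groups alone the edgeR adjusted p was 0.224. In Full-KO tail buds, which also lack the miR-19 family, Sox2 had 54.0, 42.5 and 48.2 CPM, of which replicate 2 lay inside the Wild-type range, and the difference was 0.16 ± 0.08 (edgeR adjusted p = 0.195). Delta_92 tail buds had 45.1, 48.7 and 47.1 CPM, all above Wild-type, at 0.13 ± 0.08 (edgeR adjusted p = 0.517). Delta_17 tail buds had the lowest values, at 41.2, 34.6 and 39.6 CPM, and overlapped Wild-type (−0.16 ± 0.08, edgeR adjusted p = 0.347). The remaining genotypes ran from 39.7 to 48.5 CPM and overlapped Wild-type.

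Sox2 is itself active in neuromesodermal cells, and the summed level of 14 tail bud and neuromesodermal markers, none at 0, was 1344, 1323 and 1281 CPM in Delta_19 and 1366, 1165 and 1224 CPM in Wild-type tail buds, which overlapped. The 8 somite markers summed to 71.5, 78.3 and 73.6 CPM in Delta_19 against 36.9, 68.2 and 90.3 CPM in Wild-type. The 7 neural crest markers, none at 0, were lower, at 102, 106 and 108 summed CPM in Delta_19 against 109, 120 and 115 CPM in Wild-type, without overlap. The part of these cells in the Sox2 result was not tested.

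Pax6 spread widely within genotypes and had no call. It had 12.2, 6.45 and 9.29 CPM in Delta_19 and 7.32, 8.32 and 7.63 CPM in Full-KO, against 4.02, 6.80 and 9.28 CPM in Wild-type, and its differences across the 7 mutants ran from −0.24 ± 0.38 in Delta_17 to 0.49 ± 0.36 in Delta_19. Neurog2 had 2.60, 2.70 and 3.07 CPM in Full-KO, against 1.64, 1.63 and 2.70 CPM in Wild-type. The Full-KO libraries overlapped Wild-type replicate 3 and the difference of 0.52 ± 0.20 did not pass (edgeR adjusted p = 0.103). It passed without that library (0.76, edgeR adjusted p = 0.0315), but not without any other single library. Neurog1 ran from 0 to 0.564 CPM over the 24 tail buds, with its highest value in Wild-type replicate 3. Without the low-count filter, none of its 7 mutant differences passed (−1.66 to 0.63, lowest edgeR adjusted p = 0.703).

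Tubb3 had 11.4, 12.5 and 12.0 CPM in Full-KO tail buds, against 8.13, 7.62 and 9.46 CPM in Wild-type tail buds. The groups did not overlap, and the means were 12.0 ± 0.511 and 8.40 ± 0.954 CPM (SD, n = 3 each), a difference of 0.51 ± 0.14 (edgeR adjusted p = 0.0185). The call ended without Full-KO replicate 2 (0.48, edgeR adjusted p = 0.0632), Full-KO replicate 3 (0.51, edgeR adjusted p = 0.0581) or Wild-type replicate 2 (0.44, edgeR adjusted p = 0.0514), and without the other genotypes in the fit (edgeR adjusted p = 0.0820). Delta_17 libraries had 11.1, 8.50 and 11.0 CPM and Delta_18 libraries 9.66, 10.7 and 9.20 CPM, overlapping Wild-type at 0.29 ± 0.14 and 0.23 ± 0.14 (edgeR adjusted p = 0.321 and 0.470). Delta_92 libraries were the lowest as a group, with 6.26, 8.13 and 6.56 CPM (−0.26 ± 0.14, edgeR adjusted p = 0.469). Delta_17_18_92 libraries overlapped Wild-type too. The 7 primitive erythroid markers, none at 0, were lower in Full-KO tail buds, at 769, 3030 and 3404 summed CPM. Wild-type tail buds had 3595, 5389 and 4635 CPM, without overlap. Sums in Delta_17_18_92 tail buds were also low, at 1439 to 2931 CPM. The part of these markers in the Tubb3 result was not tested.

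Dcx had the largest of the 4 called mutant differences, and among the 7 genes tested in the tail bud also the largest median SE. It had 2.53, 1.49 and 2.03 CPM in Delta_17_18 tail buds, against 0.246, 0.544 and 0.815 CPM in Wild-type tail buds. The groups did not overlap, at 3.90-fold or a log2 difference of 1.97 ± 0.51 (edgeR adjusted p = 0.0221), on counts of 6 to 51 reads over the 24 tail buds. The call ended without Delta_17_18 replicate 1 (1.77, edgeR adjusted p = 0.0575), Delta_17_18 replicate 3 (1.95, edgeR adjusted p = 0.0659) or Wild-type replicate 1 (1.59, edgeR adjusted p = 0.0647). It also ended in the fit of the 2 groups alone (edgeR adjusted p = 0.0926), and DESeq2 gave 1.94 but no adjusted p. Delta_17_18_92 libraries had 2.09, 0.697 and 0.987 CPM and overlapped Wild-type (1.30 ± 0.53, edgeR adjusted p = 0.152). Delta_18 libraries had 1.56, 0.854 and 0.580 CPM (0.99 ± 0.55, edgeR adjusted p = 0.441). Delta_19 and Delta_92 libraries stayed between 0.221 and 0.667 CPM.

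The 7 neural crest markers, none at 0, also differed in these libraries, at 134, 138 and 135 summed CPM in Delta_17_18 against 109, 120 and 115 CPM in Wild-type tail buds, without overlap. Myh6 had 6.84, 1.17 and 0.989 CPM in Delta_17_18, against 0.493, 1.13 and 5.08 CPM in Wild-type. The 9 anterior neural markers summed to 61.6, 57.0 and 56.5 CPM in Delta_17_18 against 54.9, 55.1 and 53.6 CPM in Wild-type tail buds, also without overlap, with Six3 at 0 in Delta_17_18 replicate 3 and in Wild-type replicates 1 and 3. Of this last list, Otx2 and Egr2 had medians of 0.292 and 0.158 CPM over the tail buds, so the sum came mostly from other members. It does not show how much anterior neural tissue these tail buds held. The part of all these markers in the Dcx difference was not tested. Elavl3 showed the same order without a call: it had 1.44, 2.02 and 1.74 CPM in Delta_17_18, all above the 1.03, 1.28 and 0.940 CPM of Wild-type, at 0.66 ± 0.32 (edgeR adjusted p = 0.196). Elavl4 had log2 differences between −0.23 ± 0.17 in Delta_17 and 0.23 ± 0.16 in Delta_19, none called.

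**Figure D2:**
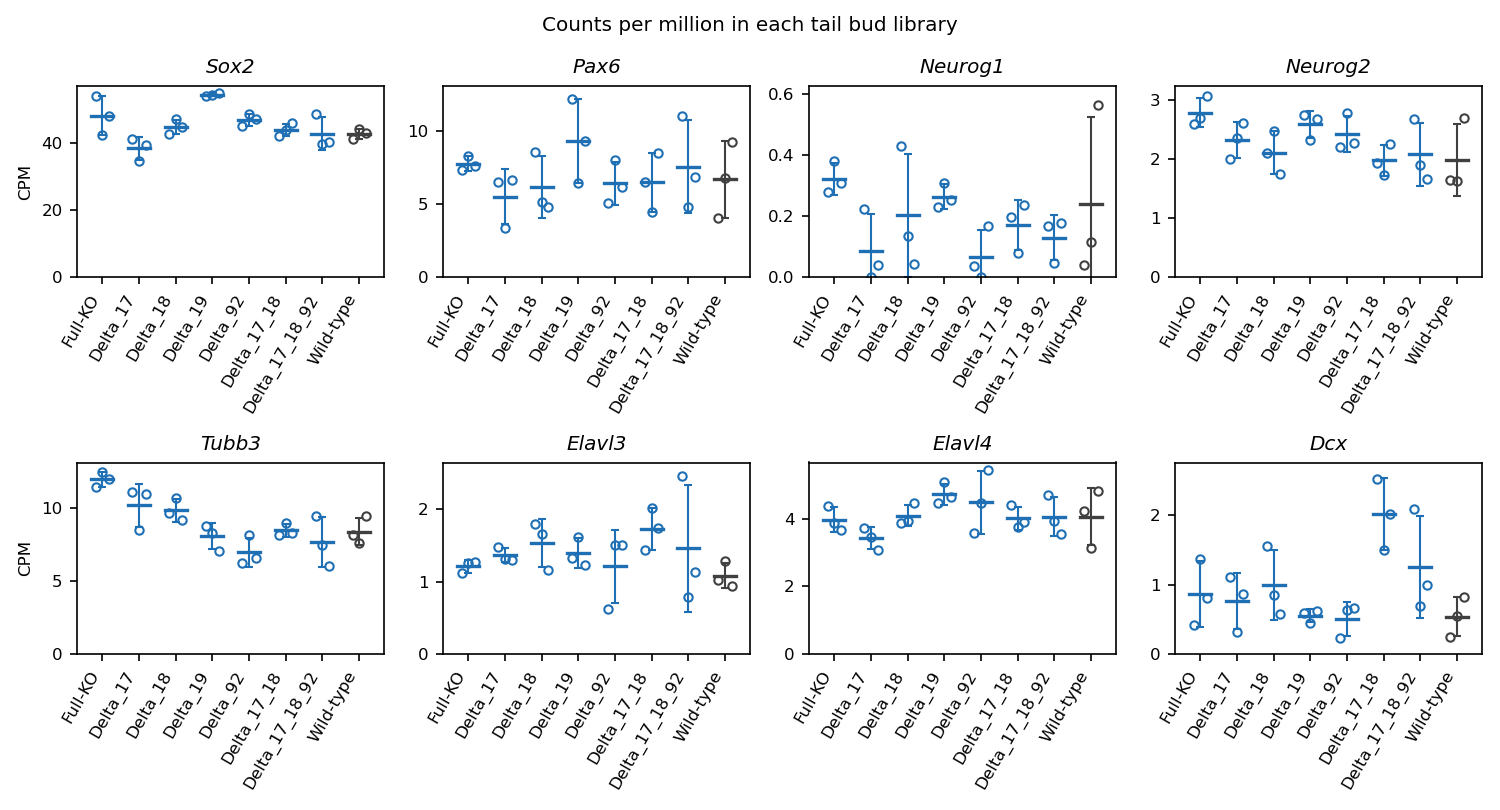
Levels of the 8 genes in the tail bud (CPM, 1 panel per gene), with 1 open point per library, a thick bar at the mean and a thin bar of 1 SD (n = 3) within an axis that starts at 0, the 7 mutant genotypes on the left and Wild-type on the right. The Delta_19 points of Sox2 (54.1 to 55.0 CPM), the Full-KO points of Tubb3 (11.4 to 12.5 CPM) and the Delta_17_18 points of Dcx (1.49 to 2.53 CPM) lie above all Wild-type points.

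In the rest of the embryo all 8 genes were tested, and 1 of 56 tests passed: Neurog1 was higher in Delta_17_18. The other 55 differences ran from −0.23 to 0.45, and 7 of the 56 had an unadjusted p under 0.05. Without the low-count filter, 7 of the 56 passed. Calls over all genes rose with that setting too, from 63 to 450 in Delta_18 and from 1167 to 1463 in Full-KO. The shares that follow are from the filtered fit. The 1 of 8 in Delta_17_18 stood beside 4.44% of 17512 genes. None of 8 passed in Full-KO (6.66% of all genes), Delta_17 (1.56%), Delta_18 (0.360%), Delta_19 (1.88%), Delta_92 (0.588%) or Delta_17_18_92 (5.62%). The median of the 8 differences was 0.25 in Delta_18, where 8 of 8 were above 0, and 0.23 in Delta_17_18, where 7 of 8 were. It was 0.09 in Full-KO, 0.04 in Delta_19 and 0.09 in Delta_17_18_92, with 5 of 8 above 0 in each, and 0.00 in Delta_17 and −0.03 in Delta_92, with 4 of 8 in each. These mutants share their Wild-type libraries, of which replicate 1 was the lowest of the 3 for each of the 8 genes.

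Neurog1 had 8.86, 11.5 and 11.3 CPM in Delta_17_18, against 5.06, 7.20 and 8.61 CPM in Wild-type. The groups did not overlap, although Delta_17_18 replicate 1 was close to Wild-type replicate 3, and the difference was 0.59 ± 0.17 (edgeR adjusted p = 0.0426). Leaving out a library ended this call in 10 of 23 cases. The adjusted p rose furthest without Wild-type replicate 1 (0.42, edgeR adjusted p = 0.201), Delta_17_18 replicate 2 (0.52, edgeR adjusted p = 0.188), Delta_17_18 replicate 3 (0.54, edgeR adjusted p = 0.137) and Wild-type replicate 2 (0.61, edgeR adjusted p = 0.0902). Without Full-KO replicate 2, Delta_17 replicate 3, Delta_92 replicate 3 or any 1 of the 3 Delta_18 libraries the edgeR adjusted p was 0.0517 to 0.0562. It was 0.0768 in the fit of the 2 groups alone.

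Delta_18 libraries, at 9.42, 8.67 and 8.92 CPM, also lay above all Wild-type libraries for Neurog1 without a call (0.36 ± 0.17, edgeR adjusted p = 0.446). The 9 anterior neural markers, none at 0, summed to 144, 133 and 137 CPM in Delta_17_18 against 112, 129 and 128 CPM in Wild-type, without overlap. The 6 visceral endoderm markers, from a membrane outside the embryo proper, were also all above 0 and summed to 39.4, 39.2 and 44.6 CPM in Delta_17_18 against 399, 127 and 51.4 CPM in Wild-type. Their part in the Neurog1 result was not tested.

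Neurog2 had 14.5, 14.8 and 15.2 CPM in Full-KO and 14.8, 14.9 and 15.2 CPM in Delta_17_18, against 10.4, 13.1 and 11.9 CPM in Wild-type. Both mutant groups lay above Wild-type, with differences of 0.32 ± 0.13 and 0.33 ± 0.13 that did not pass (edgeR adjusted p = 0.146 and 0.140). In fits of the 2 groups alone both passed (edgeR adjusted p = 0.0368 and 0.0174). Over the 23 libraries Neurog2 ran from 10.4 to 16.3 CPM, and the progenitor genes had similar relative ranges. Sox2 ran from 79.5 to 123 CPM and Pax6 from 50.2 to 77.3 CPM. Pax6 had 63.7 and 50.2 CPM in Delta_17_18_92, against 62.9, 71.9 and 63.7 CPM in Wild-type, a difference of −0.23 ± 0.08 (edgeR adjusted p = 0.120). It passed without Delta_17_18_92 replicate 1, which leaves 1 library assumed to vary like the others (−0.40, edgeR adjusted p = 0.00595). Without Delta_17_18_92 replicate 2 the difference was −0.06 (edgeR adjusted p = 0.827).

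The 4 neuronal genes had no call in the rest of the embryo, and their errors were larger. Dcx had 7.38, 11.1 and 9.14 CPM in Full-KO and 8.76, 14.9 and 13.9 CPM in Delta_17_18, against 7.25, 13.0 and 11.9 CPM in Wild-type, all overlapping. Its Full-KO difference of −0.23 ± 0.42 had a 95% interval of −1.06 to 0.59. For Tubb3, Full-KO libraries had 40.5, 47.8 and 40.3 CPM against 34.0, 41.2 and 40.9 CPM in Wild-type (0.14 ± 0.23). The 95% interval of this difference, −0.31 to 0.60, includes the 0.51 seen in the tail bud.

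**Figure D3:**
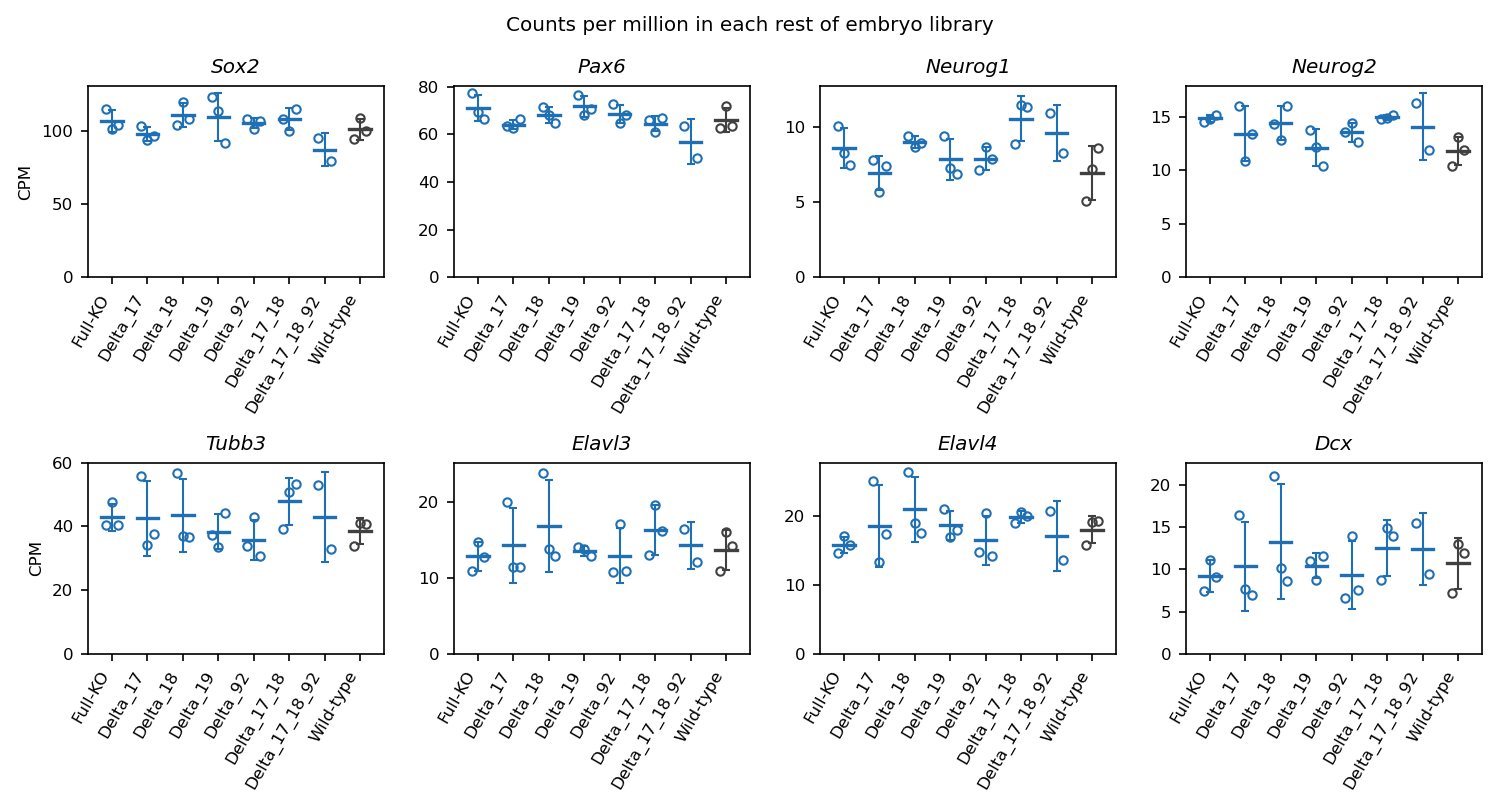
Levels of the 8 genes in the rest of the embryo (CPM, 1 panel per gene), with 1 open point per library, a thick bar at the mean and a thin bar of 1 SD, the 7 mutant genotypes on the left and Wild-type on the right. Delta_17_18 lies at 8.86 to 11.5 CPM for Neurog1, above the 5.06 to 8.61 CPM of Wild-type, and the 4 neuronal genes spread as widely within genotypes as between them.

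In the heart 6 of the 8 genes passed the filter, all but Neurog1 and Neurog2, and 0 of 42 tests passed, with 2 at an unadjusted p under 0.05 and a lowest edgeR adjusted p of 0.170. DESeq2 also called 0, while 2 tests passed in edgeR without the low-count filter. Calls over all genes rose with that setting too, from 7 to 222 in Delta_18 and from 68 to 630 in Delta_19. The shares that follow are from the filtered fit. The share of all 16750 genes called was 3.91% in Full-KO, 0.555% in Delta_17, 0.0418% in Delta_18, 0.406% in Delta_19, 0.0716% in Delta_92, 1.12% in Delta_17_18 and 1.89% in Delta_17_18_92. Dcx had 0.441, 0.584 and 0.504 CPM in Full-KO hearts, all below the 0.867, 0.830 and 1.65 CPM of Wild-type hearts (−1.09 ± 0.43, edgeR adjusted p = 0.170). Sox2 had 0.627, 0.336 and 0.686 CPM in Delta_17_18_92 hearts, all below the 1.19, 1.16 and 2.59 CPM of Wild-type hearts (−1.59 ± 0.66, edgeR adjusted p = 0.285). Both rest on few reads, with 3 to 34 counts of Dcx and 5 to 53 of Sox2 per heart.

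**Figure D4:**
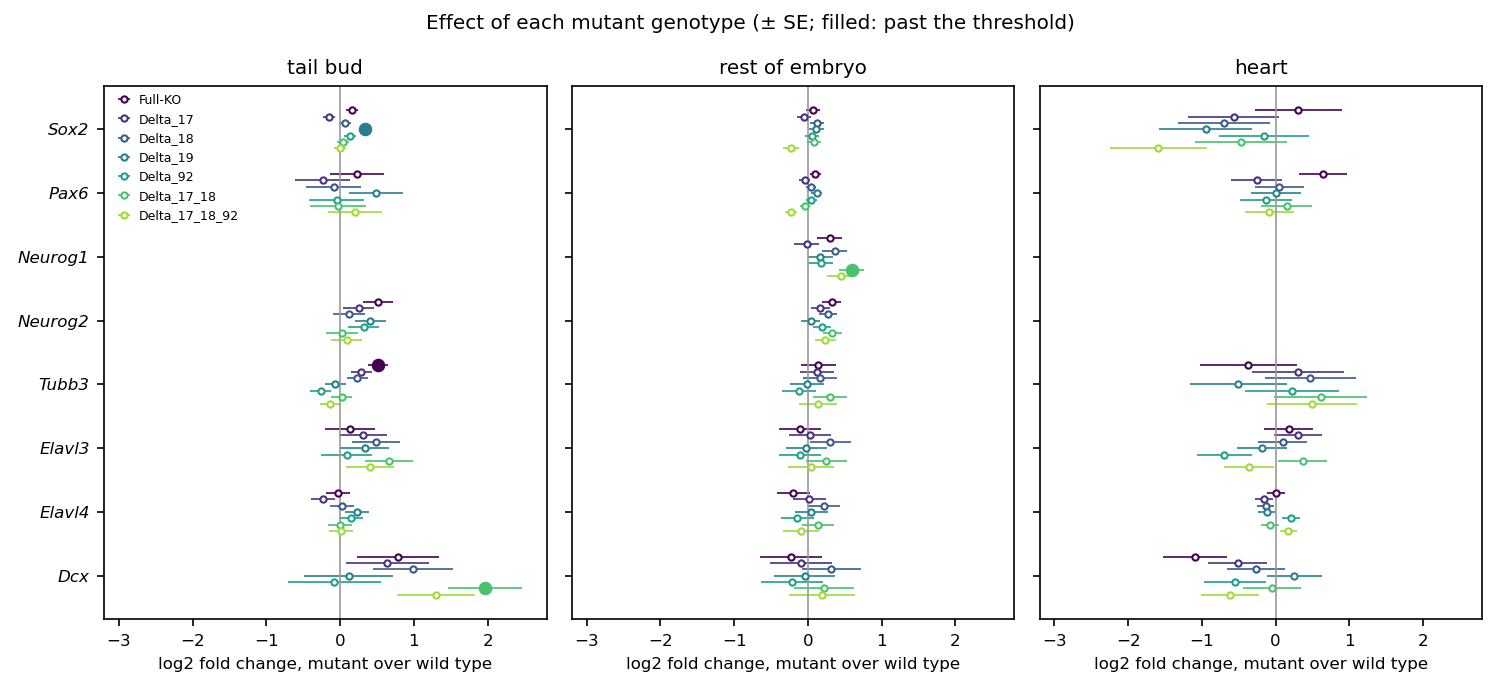
Log2 fold change of each mutant genotype over Wild-type (x axis, point and SE bar) for the 8 genes (y axis) in tail bud, rest of embryo and heart, with filled points where the edgeR adjusted p is under 0.05. The 4 filled points are Sox2 in Delta_19, Tubb3 in Full-KO and Dcx in Delta_17_18 in the tail bud, and Neurog1 in Delta_17_18 in the rest of the embryo. Genes that failed the low-count filter in a tissue have no point.

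Whether a mutant effect differed between tail bud and rest of embryo was tested directly, in a fit that did not pair the tissues. None of the 56 tests passed, in genotypes where 0.00553% of 18091 genes passed for Full-KO and for Delta_92 and 0% for Delta_17, Delta_18, Delta_19, Delta_17_18 and Delta_17_18_92. Without Wild-type tail bud replicate 2 the genes called over the whole table numbered 223 for Full-KO and 152 for Delta_17_18, against 1 and 0 with it, and still none of the 56 passed. At an unadjusted p under 0.05 there was 1 of the 56, and DESeq2 called 0. It was Dcx in Delta_17_18, whose tail bud effect minus its rest of embryo effect was 1.74 ± 0.77 (edgeR adjusted p = 0.508). For the other 3 called genes the same difference was 0.22 ± 0.13 for Sox2 in Delta_19, 0.36 ± 0.28 for Tubb3 in Full-KO and −0.86 ± 0.81 for Neurog1 in Delta_17_18 (edgeR adjusted p = 0.681, 0.719 and 0.775). With genotype and number together as a block, which pairs the tissues, none of the 56 passed either. The 4 calls are therefore not shown to be specific to their tissue.

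Because the genotypes remove the 4 seed families in different combinations, each family's loss was also estimated as an additive term over all libraries of a tissue. In the tail bud 1 of 28 tests passed, and 7 had an unadjusted p under 0.05. It was Sox2 with loss of the miR-19 family, 1 of 7 genes where 5.33% of all genes passed. None of 7 passed for the miR-17 family (5.44% of all genes), miR-18a (0.323%) or miR-92a-1 (3.66%). Sox2 ran from 42.5 to 55.0 CPM with a median of 54.0 CPM in the 6 tail buds that lacked the miR-19 family, and from 34.6 to 48.7 CPM with a median of 43.4 CPM in the 18 that kept it. Of the 6, 4 lay above all 18, and Full-KO replicates 2 and 3 lay within their range. The term was 0.23 ± 0.05 (edgeR adjusted p = 0.00405) and passed without any 1 of the 24 libraries, at 0.21 to 0.28 (edgeR adjusted p = 0.000448 to 0.0195). Sox2 held no miR-19 seed match in the searched region.

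Loss of the miR-17 family gave Sox2 a term of the other sign in the tail bud, −0.16 ± 0.05 (edgeR adjusted p = 0.0601). This passed in DESeq2 (adjusted p = 0.0321) and without any 1 of 5 libraries, namely Delta_17_18_92 replicate 1, Delta_17_18 replicate 3, Delta_18 replicate 1, Full-KO replicate 1 and Wild-type replicate 3 (edgeR adjusted p = 0.0298 to 0.0479). For Dcx, the 12 tail buds that lacked miR-18a ran from 0.417 to 2.53 CPM with a median of 1.18 CPM, and the 12 that kept it from 0.221 to 1.11 CPM with a median of 0.606 CPM. They overlapped, and the term of 0.95 ± 0.29 did not pass (edgeR adjusted p = 0.175), nor did the miR-17 family term of 0.62 ± 0.29 (edgeR adjusted p = 0.266). The Neurog2 term for loss of the miR-19 family, 0.31 ± 0.11, did not pass either (edgeR adjusted p = 0.121).

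In the rest of the embryo 0 of 32 family terms passed in edgeR, with 3 at an unadjusted p under 0.05 and 2 called by DESeq2. The edgeR shares of all genes were 7.49% for the miR-17 family, 0.748% for miR-18a, 6.59% for the miR-19 family and 5.18% for miR-92a-1. In the same order, DESeq2 called 1487, 247, 1321 and 1046 genes, against 1311, 131, 1154 and 907 in edgeR. The 2 of the 32 terms that DESeq2 called were Neurog1 with loss of miR-18a (edgeR 0.36 ± 0.11, edgeR adjusted p = 0.131, DESeq2 adjusted p = 0.0424) and Pax6 with loss of the miR-19 family (edgeR 0.14 ± 0.05, edgeR adjusted p = 0.0871, DESeq2 adjusted p = 0.0407). The Neurog1 term also passed without Delta_19 replicate 1 (edgeR adjusted p = 0.0468). The Pax6 term passed without Delta_17_18_92 replicate 2, Delta_19 replicate 2 or Delta_92 replicate 1 (edgeR adjusted p = 0.0448 to 0.0495). With loss of miR-18a, 7 of 8 genes had terms above 0, with a median of 0.16. The other families had more terms below 0, with 2 of 8 above 0 for the miR-17 family (median −0.06), 2 of 8 for the miR-19 family (−0.03) and 1 of 8 for miR-92a-1 (−0.10). The medians of all genes were −0.01 to 0.00. These counts carry no test.

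In the heart 1 of 24 terms passed, Elavl4 with loss of miR-92a-1, 1 of 6 genes where 1.58% of all genes passed. None of 6 passed for the miR-17 family (3.61% of all genes), miR-18a (0.0896%) or the miR-19 family (4.37%). The 9 hearts that lacked miR-92a-1 ran from 7.30 to 10.2 CPM of Elavl4 with a median of 8.00 CPM, and the 15 that kept it from 6.40 to 8.08 CPM with a median of 7.01 CPM. The groups overlapped, and the term was 0.27 ± 0.06 (edgeR adjusted p = 0.0236). It ended without Delta_92 replicate 1, the highest library (0.22, edgeR adjusted p = 0.103). Full-KO hearts, which also lack miR-92a-1, had a mean of 7.54 CPM, against 7.55 CPM in Wild-type hearts. The means of Delta_92 and Delta_17_18_92 hearts were 8.75 and 8.61 CPM. Against Wild-type, no mutant difference of Elavl4 passed in the heart (lowest edgeR adjusted p = 0.570). Elavl3 and Dcx had negative terms with the same loss that did not pass (−0.57 ± 0.20 and −0.56 ± 0.24, edgeR adjusted p = 0.160 and 0.299).

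Departure of the 8 genotype means from these additive terms was called for 0 of 7 genes in the tail bud, 0 of 8 in the rest of the embryo and 0 of 6 in the heart, where 0.0176%, 0.103% and 0.0597% of all genes passed. The counts at an unadjusted p under 0.05 were 1, 0 and 1. DESeq2 called 1 in the tail bud, Tubb3.

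Wider lists of neural genes were read in the same fits. In Full-KO tail buds, 3 of 22 tested progenitor genes rose and none fell, and the list's median difference was 0.13 against −0.01 for all genes. Of 10 tested proneural and commitment genes 2 rose and 1 fell (median 0.14), and of 31 tested early neuron genes 2 rose and 2 fell (median 0.07). All genes stood at 10.4% called in this comparison. The proneural and commitment list had a median summed level of 457 CPM over all tail buds. In the rest of the embryo, which holds the brain, this median was 258 CPM. The early neuron list had medians of 938 CPM in hearts, 642 CPM in the rest of the embryo and 582 CPM in tail buds. For the progenitor list the medians were 970, 1559 and 1091 CPM in the same order. Calls of these 3 lists in the tail bud are therefore not shown to be changes of neural cells. In Full-KO rest of embryo none of 25 progenitor, 18 proneural and 35 early neuron genes passed, with medians of 0.05, −0.02 and −0.07.

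Of the 10 called genes in Full-KO tail buds, 3 passed without any 1 of the 24 libraries. Pax3, a factor of the dorsal neural tube and of somites, rose by 0.74 ± 0.14 (edgeR adjusted p = 0.00144). The cell adhesion gene Ncam1 rose by 0.33 ± 0.06 (edgeR adjusted p = 0.000967). Hes6, which promotes neuronal differentiation, fell, at −0.40 ± 0.08 (edgeR adjusted p = 0.00228). In a fit of the 2 groups alone Ncam1 and Hes6 did not pass (edgeR adjusted p = 0.117 and 0.135).

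The other 7 calls each ended without Wild-type tail bud replicate 3. Among them, the Notch ligand genes Dll1 and Dll3 had differences of 0.31 ± 0.08 and 0.36 ± 0.11 (edgeR adjusted p = 0.0200 and 0.0465), and 0.33 and 0.35 without that library (edgeR adjusted p = 0.0813 and 0.179). The progenitor factors Zic2 and Irx3 had 0.35 ± 0.11 and 0.32 ± 0.10 (edgeR adjusted p = 0.0351 and 0.0485), and 0.29 and 0.33 without it (edgeR adjusted p = 0.186 and 0.119). Of the neuronal genes, the intermediate filament gene Ina had 0.95 ± 0.31 (edgeR adjusted p = 0.0481) and 0.63 without it (edgeR adjusted p = 0.232). The stathmin gene Stmn3 and the RNA-binding protein gene Celf3 had −1.90 ± 0.52 and −0.95 ± 0.27 (edgeR adjusted p = 0.0206 and 0.0278), and −1.79 and −0.94 without it (edgeR adjusted p = 0.0796 and 0.0704). Full-KO replicate 3 also decided all 7, Full-KO replicate 2 all but Celf3 and Full-KO replicate 1 all but Dll1 and Stmn3. Wild-type replicate 1 decided Dll1, Dll3, Zic2 and Irx3, and Wild-type replicate 2 decided Ina and Celf3. The largest edgeR adjusted p without 1 library was 0.232, for Ina. Dll3, Ina and Irx3 ended without any 1 of 16, 20 and 17 of the 24 libraries, those of other mutants included. Over the 7 mutants, 21 of 441 list tests passed in tail buds (4.76%, against 3.94% of all gene tests) and 5 of 546 in the rest of the embryo (0.916%, against 3.02%). Of these, 5 and 1 passed whichever single library was left out. The 8 somite markers summed to 48.7, 118 and 68.0 CPM in Full-KO against 36.9, 68.2 and 90.3 CPM in Wild-type tail buds, where Myf5 was at 0 in replicate 3. Of the marker lists of other tissues, 1 of 14 tail bud and neuromesodermal markers rose in Full-KO tail buds, Tbx6 of the presomitic mesoderm (0.26 ± 0.07, edgeR adjusted p = 0.0264), and 1 of 6 endothelium markers fell, the tight junction gene Cldn5 (−0.44 ± 0.12, edgeR adjusted p = 0.0173). The part of these tissues in the list results was not tested.

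In Delta_18 rest of embryo, 23 of 25 progenitor, 17 of 18 proneural and 29 of 35 early neuron genes had differences above 0, with medians of 0.13, 0.19 and 0.11, and 0 were called. That is 69 of 78 genes, where 50.8% of all genes were above 0. The same count was 61 of 78 in Delta_17_18 and 32 to 39 of 78 in the other 5 mutants, and all 7 were set against the same Wild-type libraries. The 9 anterior neural markers summed to 142, 142 and 132 CPM in Delta_18 against 112, 129 and 128 CPM in Wild-type, without overlap, and their part in this was not tested. These counts carry no test.

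Within genotypes, the neuronal genes varied together from library to library. Deviations of each library's log2 CPM from its genotype mean were correlated over the 23 rest of embryo libraries and tested by 100000 permutations of the libraries within genotypes, with adjustment over the 64 gene pairs computed in the 3 tissues. The 6 pairs among Tubb3, Elavl3, Elavl4 and Dcx had Pearson's r of 0.873 to 0.967 and Spearman's rho of 0.821 to 0.961 (two-sided permutation test, adjusted p = 0.00171 to 0.00805 for r). The closest pair was Elavl3 with Dcx, at r = 0.967 and 0.948 without the 2 farthest libraries. The highest libraries for Dcx were Delta_17 replicate 1 and Delta_18 replicate 1, each 0.77 above its genotype mean on the log2 scale, and Delta_92 replicate 2, at 0.65. Wild-type replicate 1 was the lowest, at −0.51. The 3 high libraries belong to different genotypes.

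The progenitor gene Sox2 did not share this variation: its r with the 4 neuronal genes was 0.013 to 0.24 (permutation test, adjusted p of 0.517 or above). Neurog1 was correlated with Elavl4 (r = 0.627, rho = 0.669, 0.645 without the 2 farthest libraries, permutation test, adjusted p = 0.0201 for r). With Tubb3, Elavl3 and Dcx its r was 0.540, 0.520 and 0.535 (permutation test, adjusted p = 0.0856 for each r). By rho its pair with Elavl3 passed, at 0.605 (permutation test, adjusted p = 0.0436). Neurog2 with Elavl4 had the larger r of 0.717, which did not pass (permutation test, adjusted p = 0.0856). The summed level of the proneural and commitment list was 298, 326 and 283 CPM in Delta_17 replicate 1, Delta_18 replicate 1 and Delta_92 replicate 2, against 219.5 to 326 CPM over all 23 libraries. Embryos had 20 to 22 somites, and the somite number of each is not given in the sources used here.

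In the tail bud the pattern was looser. Of 21 pairs, Pax6 with Dcx passed, at r = 0.833 and rho = 0.831 over 24 libraries (permutation test, adjusted p = 0.00171 for r), and r was 0.781 without the 2 farthest libraries. Pairs among the 4 neuronal genes had r of 0.24 to 0.57 there. No pair passed in the heart. Between tissues of the same replicate number, 19 gene and tissue pairs were compared, and Tubb3 was correlated between rest of embryo and heart (r = 0.826, rho = 0.794, 0.828 without the 2 farthest libraries, permutation test, adjusted p = 0.00494 for r).

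**Figure D5:**
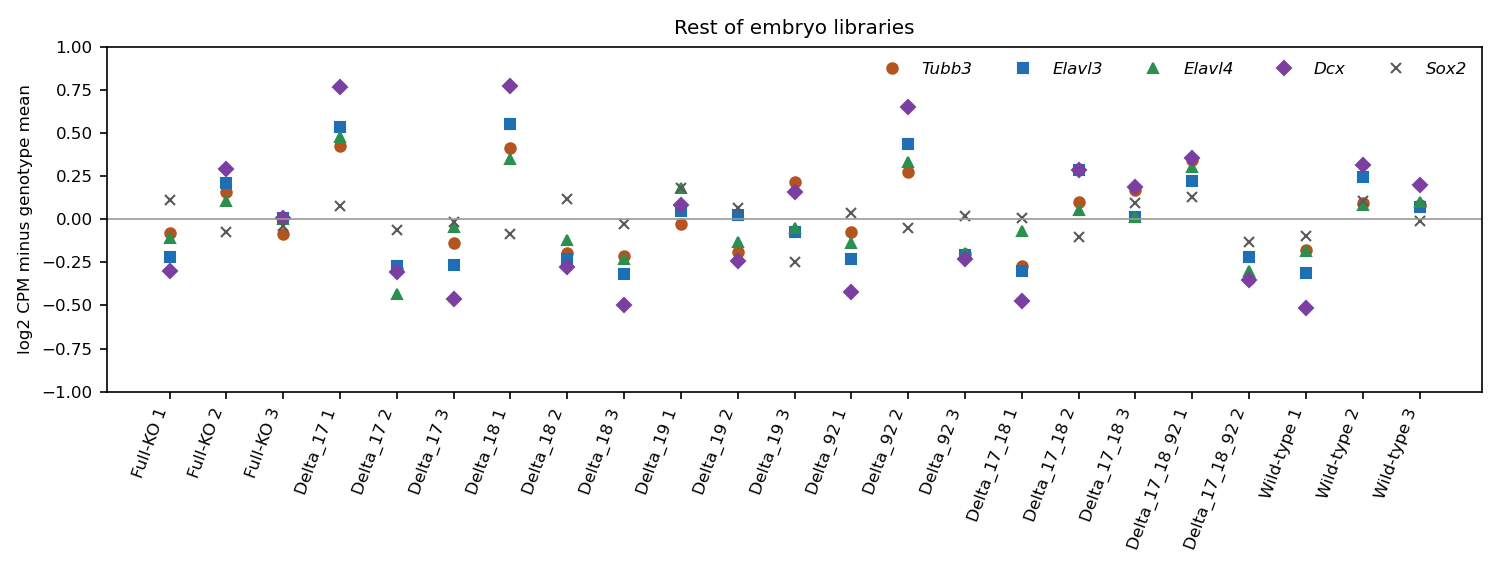
Deviation of log2 CPM from the genotype mean (y axis) for Tubb3, Elavl3, Elavl4, Dcx and Sox2 in each of the 23 rest of embryo libraries (x axis). The 4 neuronal genes lie on the same side of 0 in the libraries that stand out, with Dcx at 0.77 in Delta_17 replicate 1 and −0.51 in Wild-type replicate 1, while Sox2 lies closer to 0 in both.

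The genes whose pattern was most like the mean of the 8 were chosen by Pearson correlation of log2 CPM. Over the 24 group means these were Fez1 (0.996), Plekhg1 (0.994), Enpp2 (0.992) and Wscd1 (0.991) among named genes, values that mostly reflect the order of the 3 tissues. Over the 24 tail bud libraries after removal of genotype means they were Ckb (0.903), Fam181b (0.803), Ptn (0.799) and Ccdc34 (0.793). In both cases the third of the 5 genes has no symbol in the sources used here. These coefficients are descriptions with no test.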

How the data were processed

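RNA-seq was deposited by the authors as 1 table of raw read counts per gene for 71 libraries of 3 tissues and 8 genotypes. The tools named are STAR (version 2.3.0), SAMtools (version 0.1.14), Subread (version 1.4.2) and featureCounts, with the builds mm9 and NCBIM37, per the submitters' processing notes. Reads were single, of 50 bases, per the labels' protocols. Whether the counting used strand, and its annotation release, are not given in the sources used here. Gene symbols, exon lengths and 3′ untranslated regions came from a GRCm38 annotation by gene ID, and 32897 of 37620 IDs had a symbol. Elavl3 shares 3.11% of its 50-base words with other transcripts, Pax6 0.426% and Dcx 0.181%, and the other 5 genes share none.

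Counts were fitted per tissue with edgeR 4.0.16 (R 4.3.3, limma 3.58.1): filterByExpr by group, TMM scaling, robust quasi-likelihood test with all genotypes sharing the spread, and Benjamini-Hochberg adjustment over all tested genes of a contrast at 0.05. Standard errors are the log2 fold change over the root of F, and 95% intervals are normal. P-values of these fits set a difference against the spread between libraries. The number of embryos in a library is not given in the sources used here. Levels and correlations used Python 3.11.15, NumPy 2.4.6, SciPy 1.17.1 and pandas 2.3.3, with a prior count of 2 on the log2 scale. DESeq2 1.42.0, no filter, the 2 compared groups alone, a replicate block and leaving out each library were alternatives. The scripts were tested on simulated counts.

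The 9 genes, the lists and the tests were chosen with earlier results of these data known. The 8 with a row are covered in each comparison; of the wider lists, up to 3 genes per list and direction past the threshold in Full-KO are named by smallest p; and the 5 genes most like the 8 are named by correlation, from a mean log2 CPM of 1. Any other gene was chosen after its values were seen. One marker of the anterior neural list is not reported here, and sums of that list leave it out. Same-numbered Wild-type libraries of different tissues deviated together (r = 0.151 to 0.593, against −0.394 to 0.136 for different numbers), so the number was taken to pair the tissues.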

Additional observations from a re-analysis of the deposited data

How the results depend on the processing

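No gene difference that passed under any setting changed its sign under another. Called tests against Wild-type numbered 3 of 49 in the tail bud, 1 of 56 in the rest of the embryo and 0 of 42 in the heart. Without a low-count filter there were 7 in the rest of the embryo and 2 in the heart. With only the 2 groups compared there were 0 in tail buds and 2 in the rest of the embryo. Leaving out 1 library gave 1 to 3 in the tail bud (1 without Wild-type replicate 1) and 0 to 2 in the rest of the embryo. Family terms past the threshold with DESeq2 were 2 for tail buds and 2 for the rest of the embryo, and they ran over left-out libraries from 1 to 2 in the tail bud, 0 to 1 in the rest of the embryo and 0 to 1 in the heart. Departures from additivity became 1 in the rest of the embryo and 1 in the heart without the filter, and 1 in the tail bud with DESeq2. The cause of these moves was not tested. The miR-19 term of Sox2 in the tail bud and the 21 called Wild-type tissue contrasts passed under every alternative run.

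Replicate numbers did not pair genotypes within a tissue: same-numbered libraries had a median r of 0.03 in the tail bud, 0.00 in the rest of the embryo and −0.03 in the heart, with 5 of 21, 8 of 20 and 5 of 21 above 0.1. With the replicate block, Neurog1 in Delta_17_18 rest of embryo had an edgeR adjusted p of 0.0620, Pax6 in Delta_17_18_92 rest of embryo passed at 0.0462, and Dll3 and Irx3 in Full-KO tail bud had 0.0544 and 0.0579. The block changed no other call named here besides the Wild-type Dcx contrast.

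Many counts over all genes moved by more than 1.5 times, those of the Wild-type tissue contrasts by less. In the tail bud, Full-KO calls numbered 1776, against 198 with only the 2 groups compared and 2839 without Wild-type replicate 2. The same 3 counts were 301, 3 and 909 in Delta_17, 22, 0 and 627 in Delta_18, 175, 10 and 1194 in Delta_19, 1414, 7 and 2705 in Delta_17_18, and 947, 79 and 2032 in Delta_17_18_92. Delta_92 had 61, 0 with only the 2 groups and 156 with DESeq2. In the rest of the embryo the widest move was in Delta_18, from 63 to 450 without the filter, and in the heart in Delta_18, from 7 to 222. Family terms moved most for miR-18a in the tail bud (55, and 184 with DESeq2), and departures in the heart (10, and 1011 without the filter). Neurog1, with 0 to 11 counts per tail bud, failed the low-count filter there.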
